A study of Rattus norvegicus with 6 samples.

Results

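Rab GTPases are small membrane-bound switches that give each compartment of the secretory and endocytic pathways its identity. In the GTP-bound form they recruit effectors such as tethers, motors and coat adaptors, and in the GDP-bound form they are drawn off membranes by a dissociation inhibitor. In muscle and heart they are known for carrying glucose transporters, integrins and newly made matrix to and from the cell surface and for delivering cargo to lysosomes. The members described here are the 58 genes, of 31011 with a usable symbol, whose symbol is Rab followed by a number and at most a subtype letter and digit. Rab-like genes and proteins named for binding a Rab are not among them. All 58 symbols were matched in RefSeq.

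The libraries were 3 of cells that had received an siRNA against eIF3m, a subunit of a translation initiation complex, and 3 of cells that had received a control siRNA. The rat cells are described as myocardial and called NRVM, with embryonic heart muscle given as their origin and growth in serum-containing medium. The extraction text, which both groups share, also names dexamethasone, isobutylmethylxanthine and insulin feeding, and whether these cells received them is unclear. No injury is named for either group. RNA sequencing gave 10061575, 2156186 and 7901395 counts in eIF3m siRNA replicates 1, 2 and 3, and 7437285, 8237840 and 8603602 counts in control siRNA replicates 1, 2 and 3. Nothing says that the replicates were separate cultures, so p-values reflect only how far these libraries vary, and that variation may be technical.

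The siRNA lowered its target. Eif3m stood at 92.0, 84.1 and 87.6 CPM (counts scaled to library size, with TMM factors) in the eIF3m siRNA libraries, against 138, 136 and 141 CPM in the control siRNA libraries (log2 fold change -0.64 ± 0.05 SE). The cell label is only in part borne out by markers. Calls of markers below stand beside 38.7% of all genes tested that were called, 17.4% as higher and 21.2% as lower. Of 12 cardiomyocyte markers 3 were high enough to test, and Myh7 and Myl2, myosin genes of heart muscle, had at most 3 counts in every library. The cardiomyocyte list summed to 157 to 178 CPM in eIF3m siRNA libraries and 411 to 425 CPM in control siRNA libraries. It had 0 members higher and 3 lower. Most of the sum was Tnnt2, which averaged 152 CPM with eIF3m siRNA and 366 CPM with control siRNA. The list of 8 skeletal myoblast markers summed to 30.2 to 36.8 CPM with eIF3m siRNA and 54.0 to 62.0 CPM with control siRNA. Of the 4 tested 0 were higher and 3 lower, among them Myog (-1.84), while Myod1 (-0.09) did not pass. The fibroblast list summed to 14340 to 14670 CPM in eIF3m siRNA libraries and 13410 to 13600 CPM in control siRNA libraries, mostly from the collagen gene Col1a1, which averaged 13266 CPM with eIF3m siRNA and 12050 CPM with control siRNA. Of the 6 fibroblast markers tested 4 were higher and 2, Thy1 (-0.55) and Ddr2 (-0.42), lower. The higher ones were Col1a1 (0.14), Postn (0.35), Dcn and Lum. Dcn had 55.5, 2.21 and 1.80 CPM in eIF3m siRNA replicates 1, 2 and 3, against a control mean of 1.09 CPM. Lum had 10.3, 3.98 and 2.89 CPM in these replicates, against a control mean of 0.656 CPM. Both were highest in eIF3m siRNA replicate 1 and had at most 24 counts in every other library. Smooth muscle and pericyte markers summed to 2942 to 3059 CPM with eIF3m siRNA and 4406 to 4551 CPM with control siRNA, with 4 members lower and 1, Notch3 (1.39), higher. In eIF3m siRNA replicate 1 the red blood cell list reached 6248 CPM, against 51.2 to 233 CPM in the other eIF3m siRNA libraries and 32.4 to 77.4 CPM in controls, and the endothelial list reached 175 CPM, against 13.5 to 22.6 CPM in the other eIF3m siRNA libraries and 8.87 to 15.5 CPM in controls. The part of these shifts in the Rab results was not tested, and in bulk RNA fewer cells of a type cannot be told apart from less RNA per cell.

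Knockdown of eIF3m went with small changes of individual Rab transcripts in both directions. Of the 42 members that passed the filter on low counts, 4 rose, 9 fell and 29 did not pass the test (edgeR quasi-likelihood test, adjusted p under 0.05 over 12724 genes). Rab30, Rab14, Rab32 and Rab23 rose, and Rab31, Rab7a, Rab2a, Rab22a, Rab1a, Rab10, Rab11b, Rab5b and Rab34 fell. The 13 called members are 31.0% of those tested, and among all genes 38.7% were called, 17.4% as higher and 21.2% as lower. The members' share is near this background and its order depends on the filter, since with no filter 17 of 57 members and 24.3% of all genes were called. The changes were modest. The absolute log2 fold change had a median of 0.14 over Rab genes and 0.24 over all genes tested. Rab genes and all genes were not matched for expression level. At 2-fold or more, 0 Rab genes passed the test, against 4.09% of all genes. The members' median log2 fold change was -0.08, beside 0.01 for all genes.

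**Figure D1:**
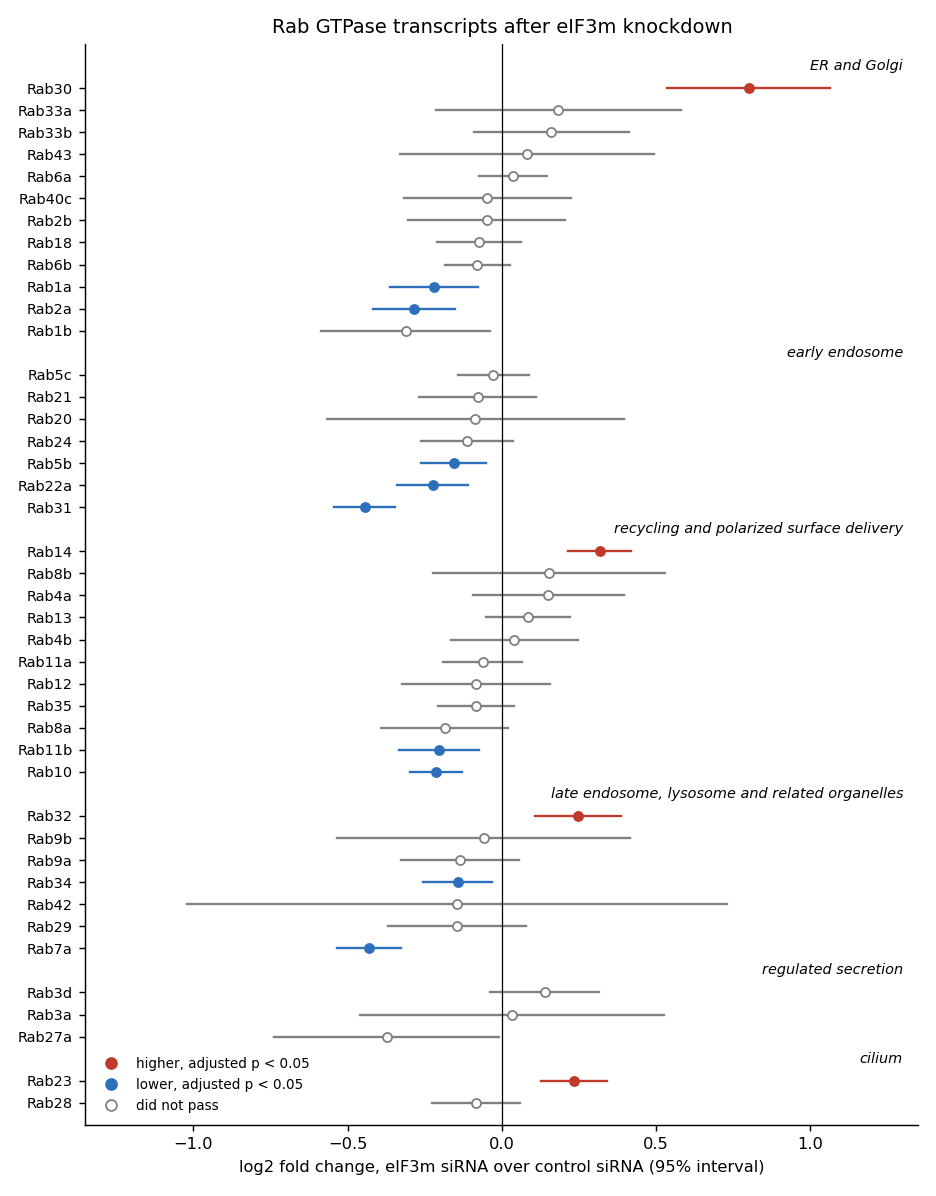
Log2 fold change of each of the 42 tested Rab transcripts, eIF3m siRNA over control siRNA, with its 95% interval. Genes are grouped by a hand-written list of compartments and roles. Filled red points rose (4 members), filled blue points fell (9) and open points did not pass; Rab30 lies farthest from 0, at 0.80.

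Calls of 5 members held under all 16 other settings tried, namely those of Rab31, Rab7a, Rab30, Rab14 and Rab23. The stretch of 250 bases before the annotated start is shown for Rab31 and Rab7a, which had the lowest fold changes, and for Rab30, which had the highest. The sequences are RefSeq's, of rat assembly GRCr8, which is not the build of the count files (rn6). Each is given 5′ to 3′ on the strand of its gene, and capitals mark matches on either strand to any of 6 motifs, which were allowed to overlap. The motifs searched were the GC box, with the letters GGGCGG, the CCAAT box, named for its letters, and the E-box, here with the letters CACGTG. Also searched were the YY1-type element GCCATNTT, the cyclic AMP response element TGACGTCA and the TATA box, taken as TATAAA. Rab30 has a further annotated start, not shown. Rab31 lies at chr9:112828093-112828342 on the minus strand, Rab7a at chr4:122064186-122064435 on the minus strand and Rab30 at chr1:156215887-156216136 on the plus strand.
Rab31: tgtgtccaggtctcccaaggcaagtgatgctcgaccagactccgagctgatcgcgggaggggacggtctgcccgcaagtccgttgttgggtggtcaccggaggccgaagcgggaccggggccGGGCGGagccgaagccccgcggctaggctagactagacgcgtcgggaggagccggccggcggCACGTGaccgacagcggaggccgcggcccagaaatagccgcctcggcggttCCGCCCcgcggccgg
Rab7a: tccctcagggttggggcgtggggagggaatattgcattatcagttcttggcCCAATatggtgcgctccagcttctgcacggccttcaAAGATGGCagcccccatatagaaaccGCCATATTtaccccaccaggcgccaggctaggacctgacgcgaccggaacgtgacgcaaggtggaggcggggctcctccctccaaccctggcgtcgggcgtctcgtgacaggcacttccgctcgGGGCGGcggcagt
Rab30: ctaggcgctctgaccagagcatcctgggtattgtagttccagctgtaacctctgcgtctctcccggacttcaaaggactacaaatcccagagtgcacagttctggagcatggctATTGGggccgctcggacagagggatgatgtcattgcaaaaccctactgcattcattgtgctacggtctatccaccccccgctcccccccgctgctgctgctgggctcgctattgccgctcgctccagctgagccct
The Rab31 window holds 1 CACGTG and 2 GC boxes, the Rab7a window 1 GC box, 1 CCAAT box and 2 GCCATNTT matches, and the Rab30 window 1 CCAAT box. RefSeq starts were found for 35 of the 42 tested members (36 windows). A GC box occurred in 83.3% of these windows (30 of 36), against 56.8% of 10523 windows of all genes tested. GCCATNTT occurred in 13.9% (only 5 of 36) against 5.07%. Differences in motif share were not tested. CCAAT occurred in 38.9% against 35.2% and CACGTG in 5.56% against 7.88%, while TATAAA and TGACGTCA were found in 0 Rab windows, against 6.49% and 2.77%. GC content had a median of 64.4% in Rab windows and 60.0% in those of all genes tested. Of the 10 called members with a window, 7 held a GC box, Rab31 and Rab7a among them. A match is a description of the letters and no evidence of binding.

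Among the 12 tested Rabs of the endoplasmic reticulum and Golgi, 1 rose and 2 fell (25% called, beside 38.7% of all genes). Rab30, a Golgi Rab, stood at 29.0, 41.6 and 32.8 CPM in eIF3m siRNA replicates 1, 2 and 3, against 19.7, 19.7 and 17.3 CPM in control siRNA replicates 1, 2 and 3. The groups did not overlap, and eIF3m siRNA replicate 2, the shallowest library, was the highest. The fitted level was 74.0% higher with eIF3m siRNA (log2 fold change 0.80 ± 0.12 SE, edgeR adjusted p = 1.01e-04), the largest change of the family. Its log2 fold change lay between 0.71 and 1.02 over the 16 settings.

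Rab1a, which directs vesicles from the endoplasmic reticulum to the Golgi, had 178, 148 and 182 CPM in eIF3m siRNA libraries, against 199, 208 and 191 CPM in control siRNA libraries. It fell by 14.1% (log2 fold change -0.22 ± 0.07 SE, edgeR adjusted p = 0.0165). Replicate 2 of the knockdown was well below the other libraries of its group, and replicates 1 and 3 lay just below the controls. Rab2a, which acts at the same step and in fusion with lysosomes, had 106, 123 and 102 CPM in eIF3m siRNA libraries, against 132, 136 and 129 CPM in control siRNA libraries. It fell by 18.0% (-0.29 ± 0.06 SE, edgeR adjusted p = 0.00195), with no overlap of the groups. The Rab1a call was lost with upper-quartile scaling, with no scaling factors and without control siRNA replicate 2 (log2 fold change -0.20), and that of Rab2a with no scaling factors and in libraries thinned to equal depth. Over the 16 settings the adjusted p ran from 1.12e-04 to 0.394 for Rab1a and from 2.71e-06 to 0.136 for Rab2a.

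The paralogues of these genes were at lower counts and did not pass. Rab1b had 14.6, 16.8 and 15.5 CPM in eIF3m siRNA libraries, against 20.0, 16.6 and 20.6 CPM in control siRNA libraries (log2 fold change -0.31, 95% interval -0.59 to -0.04, edgeR adjusted p = 0.0669). It passed without control siRNA replicate 2 (-0.41) and with limma-voom (-0.32), with adjusted p between 0.0342 and 0.307 over the settings. Rab2b averaged 16.8 ± 1.16 CPM with eIF3m siRNA and 17.6 ± 0.948 CPM with control siRNA (SD, n = 3 each; interval -0.31 to 0.21). Rab6a, which drives traffic back through the Golgi, averaged 212 ± 5.81 CPM with eIF3m siRNA and 207 ± 11.1 CPM with control siRNA. The 95% interval of its log2 fold change was -0.08 to 0.15. Rab18, a Rab of the reticulum and lipid droplets, lay at -0.07 (interval -0.21 to 0.06). The other members of this group that did not pass were Rab6b, Rab33a, Rab33b, which is linked to autophagosome formation, Rab40c, which is part of a ubiquitin ligase, and Rab43, at -0.08 to 0.18 on the log2 scale. With no scaling factors Rab6a (0.18) and Rab33b (0.31) passed as higher.

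Rabs listed here as early endosomal counted 0 risen and 3 fallen of 7 tested (42.9% called, beside 38.7% of all genes). All 7 had negative fold changes with TMM scaling, and those of Rab5c, Rab20, Rab21 and Rab24 were positive with no scaling factors. With TMM, values were negative for 28 of the 42 tested members and 6181 of 12724 genes. Rab31, which moves cargo between the trans-Golgi network and endosomes, had 192, 185 and 184 CPM in eIF3m siRNA libraries, against 251, 255 and 258 CPM in control siRNA libraries. The groups lay far apart relative to the spread within each. Rab31 fell by 26.5% (log2 fold change -0.44 ± 0.05 SE, edgeR adjusted p = 2.13e-06), the lowest fold change of the family, and stayed between -0.46 and -0.30 over the 16 settings. Rab22a, its closest relative here and a regulator of endosomal sorting, had 79.2, 74.8 and 73.2 CPM in eIF3m siRNA libraries, against 90.6, 90.3 and 85.9 CPM in control siRNA libraries. It fell by 14.4% (-0.22 ± 0.05 SE, edgeR adjusted p = 0.00414). This call was lost with no scaling factors and in thinned libraries (adjusted p from 5.99e-04 to 0.25 over the settings).

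Of the Rab5 genes, which control fusion of early endosomes, Rab5b had 107, 108 and 104 CPM in eIF3m siRNA libraries, against 118, 116 and 120 CPM in control siRNA libraries. Rab5b fell by 10.3% (log2 fold change -0.16 ± 0.05 SE, edgeR adjusted p = 0.0201) with no overlap of the groups. Its call was among the less stable, being lost under 5 of the 16 settings, among them DESeq2 and the fit without control siRNA replicate 3 (-0.15), with adjusted p from 0.0152 to 0.882. A long noncoding RNA gene overlaps Rab5b in the RefSeq annotation, and whether counting used strand is not given in the sources used here. Rab5c had 153, 142 and 136 CPM in eIF3m siRNA libraries, against 147, 146 and 147 CPM in control siRNA libraries, and it did not pass (interval -0.14 to 0.09). Rab5a had 4, 0 and 1 counts in eIF3m siRNA libraries and 1, 11 and 1 counts in control siRNA libraries, too few to test. The copy-like gene Rab5al1, which is no member, held 27.3, 25.7 and 27.9 CPM with eIF3m siRNA and 28.5, 25.0 and 24.3 CPM with control siRNA. How reads were shared between Rab5a and Rab5al1 cannot be seen in these counts, so the Rab5a value is uncertain. Rab20, known from phagosomes, Rab21, known from integrin uptake, and Rab24, known from autophagic clearance, lay between -0.11 and -0.08 and did not pass.

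Among the 11 tested Rabs of recycling and polarized delivery to the surface, 1 rose and 2 fell (27.3% called, beside 38.7% of all genes). Rab14, which links endosomes, the Golgi and the surface and takes part in glucose transporter traffic, had 180, 189 and 183 CPM in eIF3m siRNA libraries, against 148, 150 and 144 CPM in control siRNA libraries. Every knockdown library was above every control. Rab14 was 24.6% higher (log2 fold change 0.32 ± 0.05 SE, edgeR adjusted p = 8.03e-05) and stayed between 0.30 and 0.46 over the settings. Rab10, also known for bringing glucose transporters to the surface, moved the other way. It had 398, 407 and 416 CPM in eIF3m siRNA libraries, against 467, 460 and 489 CPM in control siRNA libraries. Rab10 fell by 13.8% (-0.21 ± 0.04 SE, edgeR adjusted p = 5.49e-04), and the call was lost with no scaling factors (log2 fold change -0.067; adjusted p from 1.22e-06 to 0.189 over the settings).

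Rab11b, of the recycling endosome, had 106, 112 and 107 CPM in eIF3m siRNA libraries, against 135, 116 and 122 CPM in control siRNA libraries. It fell by 13.3% (log2 fold change -0.21 ± 0.06 SE, edgeR adjusted p = 0.0145). Control siRNA replicate 1 was the highest library, and without it the value was -0.15 and did not pass. The call was also lost with upper-quartile scaling, with no scaling factors and in thinned libraries (adjusted p from 0.00106 to 0.449 over the settings). Its paralogue Rab11a had 63.9, 73.5 and 67.2 CPM in eIF3m siRNA libraries, against 68.1, 69.7 and 71.7 CPM in control siRNA libraries, and the overlapping groups gave an interval of -0.19 to 0.07. Rab8a, which carries vesicles to the surface and the cilium, averaged 43.4 ± 5.89 CPM with eIF3m siRNA and 49.0 ± 3.51 CPM with control siRNA (SD, n = 3 each), at -0.19 (interval -0.39 to 0.02). Without eIF3m siRNA replicate 1, the library rich in blood and endothelial transcripts, it passed at -0.32, and it also passed with no filter and all 6 libraries kept (-0.20). The others, Rab4a and Rab4b of rapid recycling, Rab8b, Rab12, Rab13, known from cell junctions, and Rab35, lay between -0.08 and 0.15 and did not pass. Rab13 passed as higher with no scaling factors (0.23) and in thinned libraries (0.33), and Rab4a with no scaling factors (0.30).

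**Figure D2:**
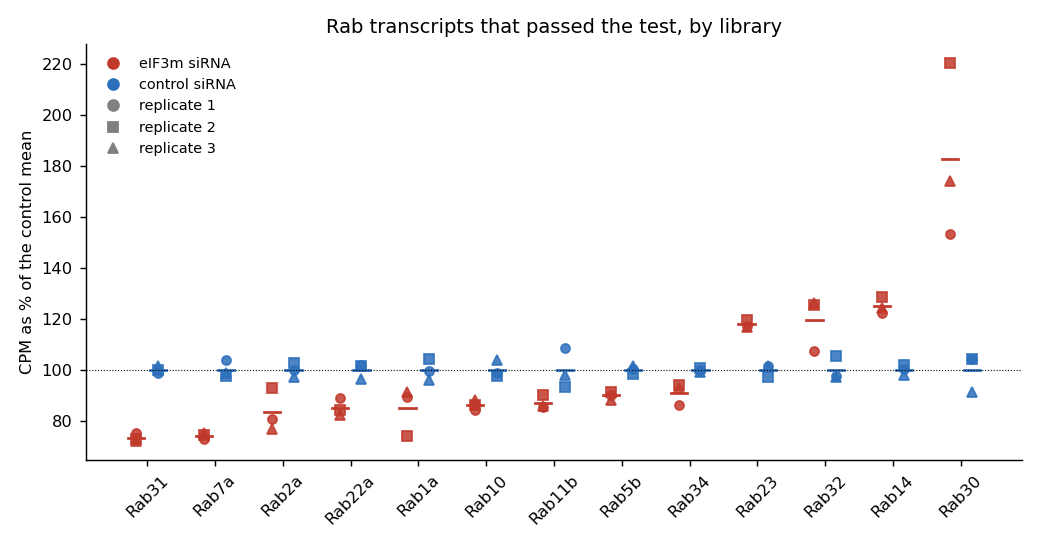
Level of each of the 13 called Rab transcripts in each library, as a percentage of its mean in the 3 control siRNA libraries (CPM, TMM-scaled); points are libraries, short lines are group means and the dotted line marks the control mean. The eIF3m siRNA values of Rab31 and Rab7a lie between 72.1% and 75.4%, and those of Rab30 spread from 153% to 220%.

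Late endosomal, lysosomal and lysosome-related Rabs counted 1 risen and 2 fallen of 7 tested (42.9% called, beside 38.7% of all genes). Rab7a, which directs late endosomes to fuse with lysosomes, had 177, 181 and 183 CPM in eIF3m siRNA libraries, against 252, 237 and 239 CPM in control siRNA libraries. The gap between the groups was wider than the range within either. Rab7a fell by 25.8% (log2 fold change -0.43 ± 0.05 SE, edgeR adjusted p = 4.15e-06) and stayed between -0.45 and -0.28 over the settings. Rab32, which serves lysosome-related organelles and mitochondria, had 110, 128 and 129 CPM in eIF3m siRNA libraries, against 99.7, 108 and 99.1 CPM in control siRNA libraries. It was 18.6% higher (0.25 ± 0.07 SE, edgeR adjusted p = 0.00798). Replicate 1 of the knockdown lay only just above the highest control, and without knockdown replicate 3 the value was 0.18 and did not pass (adjusted p from 1.11e-04 to 0.0652 over the settings).

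Rab34, which positions lysosomes and helps to form cilia, had 100, 109 and 108 CPM in eIF3m siRNA libraries, against 116, 117 and 115 CPM in control siRNA libraries. It fell by 9.50% (log2 fold change -0.14 ± 0.05 SE, edgeR adjusted p = 0.0412). This was the least stable call of the 13, lost under 9 of the 16 settings. With no scaling factors (0.0022) and in thinned libraries (0.00063) its sign turned. The call was also lost with DESeq2, with other size factors, and in the fits without eIF3m siRNA replicate 1 (-0.096) and without control siRNA replicate 1 (-0.15), 2 (-0.14) or 3 (-0.15), and its adjusted p ran from 0.0249 to 0.997. Rab9a, of transport from late endosomes to the Golgi, averaged 42.5 ± 3.61 CPM with eIF3m siRNA and 46.4 ± 4.61 CPM with control siRNA (SD, n = 3 each), and Rab29, a partner of the kinase LRRK2, 24.8 ± 3.34 CPM with eIF3m siRNA and 28.3 ± 1.82 CPM with control siRNA. Neither passed, nor did Rab9b and Rab42, whose counts were low and whose intervals were wide, that of Rab42 from -1.02 to 0.73.

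Of the 2 tested ciliary members 1 rose, beside 17.4% of all genes called higher. Rab23, a negative regulator of Hedgehog signalling, had 105, 107 and 104 CPM in eIF3m siRNA libraries, against 90.5, 86.6 and 90.7 CPM in control siRNA libraries. The groups did not overlap, and Rab23 was 17.6% higher (log2 fold change 0.23 ± 0.05 SE, edgeR adjusted p = 0.00182), between 0.21 and 0.38 over the settings. Rab28 averaged 56.8 ± 2.94 CPM with eIF3m siRNA and 59.3 ± 4.05 CPM with control siRNA and did not pass (interval -0.23 to 0.06).

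Of 9 Rabs of regulated secretion, the class that docks secretory granules and synaptic vesicles, 3 were tested and 0 passed by edgeR, DESeq2 or limma-voom. By edgeR 38.7% of all genes passed. Unadjusted p was under 0.05 for 1 of these 3 Rabs, Rab27a, which tethers secretory lysosomes and exosome-forming bodies. Rab27a had 13.5, 10.6 and 8.54 CPM in eIF3m siRNA libraries, against 14.3, 14.97 and 13.7 CPM in control siRNA libraries (log2 fold change -0.37, interval -0.74 to -0.01, edgeR adjusted p = 0.0973). The groups did not overlap, though knockdown replicate 1 was just below the lowest control. Without that replicate Rab27a passed at -0.64, and over the settings its adjusted p ran from 0.00894 to 0.439. Rab3d averaged 42.3 ± 5.15 CPM with eIF3m siRNA and 39.6 ± 1.19 CPM with control siRNA, at 0.14 on the log2 scale, and passed as higher with no scaling factors (0.28). Rab3a, a synaptic vesicle Rab, averaged 7.79 ± 2.04 CPM with eIF3m siRNA and 7.78 ± 1.60 CPM with control siRNA.

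For 14 of the 29 members that did not pass, the 95% interval lay within 1.25-fold in both directions with TMM scaling. Rab13 is among these 14, and in thinned libraries, which rest on a single random draw, its value was past that bound (0.33). For the other 15 the interval was wider. The groups did not overlap for 15 of the 42 members, 4 with the knockdown libraries higher and 11 with them lower. Among all genes tested the groups did not overlap for 48.6%, with 23.3% higher and 25.3% lower.

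**Figure D3:**
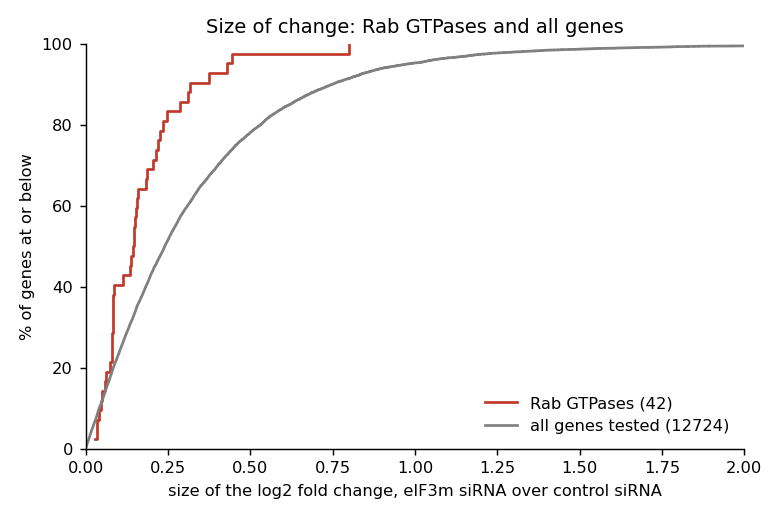
Cumulative share of genes (%) against the size of the log2 fold change, eIF3m siRNA over control siRNA, for the 42 tested Rab genes and all 12724 genes tested (horizontal axis ends at 2). The Rab curve runs above that of all genes over most of its range, with medians of 0.14 and 0.24. The gene sets were not matched for expression level.

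In 11 pairs of close paralogues both members could be tested, which allows a comparison that no scaling of libraries can move. The log2 ratio of Rab22a to Rab31 counts was -1.27, -1.31 and -1.33 in eIF3m siRNA libraries, against -1.47, -1.49 and -1.59 in control siRNA libraries, a difference of 0.21. The ratio of Rab11a to Rab11b differed by 0.16, that of Rab6a to Rab6b by 0.11 and that of Rab5b to Rab5c by -0.12, and in these 4 pairs the groups did not overlap. Each gave p = 0.10 (exact permutation test, two-sided, adjusted p = 0.275 over 11 pairs), the smallest p that 3 against 3 libraries allow. In 0 of the 11 pairs did 1 member rise and the other fall. How often ratios of other gene pairs separate the groups was not measured, so the 4 pairs have no background share.

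With all 6 libraries and the filter on low counts, the remaining 16 members were too low to test. They had at most 27 counts in any library. Rab3c had 0 counts in all 6 libraries, which allows up to 0.287 to 1.33 CPM depending on the library (3 counts, counting error only). In 9 of the 16, eIF3m siRNA replicate 1 held the highest count, and in 8 it held the highest CPM. How often this holds among other low-count genes was not measured. Rab27b, known from platelets and exosome release, had 17, 1 and 0 counts in eIF3m siRNA libraries and 1, 0 and 0 in control siRNA libraries. Rab25, an epithelial Rab, had 27, 2 and 14 counts with eIF3m siRNA and 4, 7 and 3 with control siRNA, and Rab26, of secretory granules, 14, 0 and 6 with eIF3m siRNA and 0, 0 and 2 with control siRNA. These 3 passed as higher when no filter was used. Rab25 also passed as higher without eIF3m siRNA replicate 2 and without control siRNA replicate 2. Replicate 1 is the deepest library and the one with the blood and endothelial transcripts given above. Rab37, a mast cell Rab, had 11, 0 and 1 counts with eIF3m siRNA and 9, 13 and 7 with control siRNA. Rab40b had 20, 8 and 8 with eIF3m siRNA and 6, 2 and 8 with control siRNA, and passed as higher without eIF3m siRNA replicate 3. Rab7b, Rab15, Rab17, Rab19, Rab36, Rab38, Rab39a, Rab3b and Rab44 had at most 6 counts in every library.

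**Figure D4:**
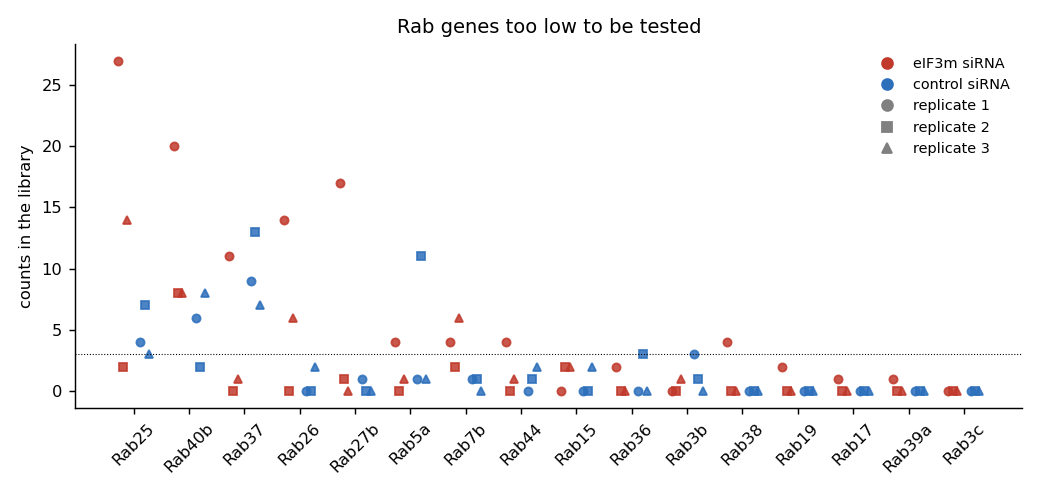
Counts per library of the 16 Rab genes that were too low to test, eIF3m siRNA to the left of control siRNA for each gene; the dotted line marks 3 counts. Circles stand for replicate 1, and the highest circle is the 27 counts of Rab25 in eIF3m siRNA replicate 1.

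The list of proteins that load, switch and read Rabs was called at a share near the background. Of 142 listed regulators and effectors 124 were tested, 11 rose and 36 fell. That is 37.9% called beside 38.7% of all genes, of which 17.4% were called higher and 21.2% lower. The share called was 71.4% of the 7 genes that prenylate, escort or extract Rabs and 31.8% of exchange factors. It was 37.1% of GTPase-activating proteins and 39.5% of effectors. The split turned with scaling, to 28 higher and 16 lower with no scaling factors. Their median log2 fold change was -0.08, beside 0.01 for all genes, and 20 of the 47 calls held under all 16 settings.

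Of 7 genes that prenylate, escort or extract Rabs, 1 rose and 4 fell. Rabac1, which helps Rabs off their dissociation inhibitor, averaged 59.8 ± 3.17 CPM with eIF3m siRNA and 97.4 ± 8.52 CPM with control siRNA (SD, n = 3 each; log2 fold change -0.70 ± 0.07 SE, edgeR adjusted p = 1.16e-06). Gdi2, a GDP dissociation inhibitor, averaged 227 ± 6.56 CPM with eIF3m siRNA and 279 ± 5.45 CPM with control siRNA (-0.29 ± 0.05 SE). Chm, the Rab escort protein whose loss causes choroideremia in humans, fell by 0.63 on the log2 scale. The subunits of geranylgeranyl transferase, which attaches the lipid anchor, parted. Rabggta rose (0.46 ± 0.12 SE), and Rabggtb, named after its values were seen, was at -0.15 ± 0.05 SE, a call lost under 8 of the 16 settings, including the fits without eIF3m siRNA replicate 1 (-0.11) or 2 (-0.14) and control siRNA replicate 1 (-0.16) or 2 (-0.14).

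Exchange factors, which activate Rabs, counted 6 risen and 8 fallen of 44 tested. Sbf1 (0.23 ± 0.05 SE), Dennd5a (0.19 ± 0.05) and Rin3 (0.36 ± 0.09), a Rab5-family exchange factor, rose. Hps1, part of an exchange complex for Rab32 and Rab38, fell by 0.27, Dennd5b by 0.56 and Dennd2a by 0.45 on the log2 scale. Rin3 did not pass without eIF3m siRNA replicate 3 (0.30), Hps1 with no scaling factors (-0.12) or in thinned libraries (-0.19), and Dennd5b (-0.42) and Dennd2a (-0.45) in thinned libraries. GTPase-activating proteins, which switch Rabs off, counted 2 risen and 11 fallen of 35. Tbc1d4, also called AS160, the insulin-regulated brake on Rab10 and Rab14, averaged 12.5 ± 1.16 CPM with eIF3m siRNA and 7.61 ± 1.32 CPM with control siRNA (0.73 ± 0.17 SE, edgeR adjusted p = 0.00343). Tbc1d10c, at low counts, rose (1.09 ± 0.35 SE) and did not pass without eIF3m siRNA replicate 1 (0.93) or control siRNA replicate 3 (0.84), with DESeq2 (1.10) or with no filter (1.07). Tbc1d17 fell by 0.76, Tbc1d9b by 0.45 and Tbc1d2b, a Rab22-directed protein, by 0.45 on the log2 scale.

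Effectors counted 2 risen and 13 fallen of 38 tested. Ehbp1l1, a Rab8 and Rab10 effector, averaged 368 ± 8.63 CPM with eIF3m siRNA and 570 ± 14.4 CPM with control siRNA (log2 fold change -0.63 ± 0.04 SE, edgeR adjusted p = 4.53e-09). Mical1, an actin-oxidizing enzyme that binds Rabs, fell by 0.59 and Plin3, a lipid droplet coat protein that binds Rab9, by 0.51 on the log2 scale. Micall2, a Rab13 effector (0.35 ± 0.08 SE), and Rilpl2, which binds phosphorylated Rabs (0.33 ± 0.08), rose. Further effectors, named after their values were seen, fell under all settings. These were Fyco1 (-0.65 ± 0.09 SE), which joins Rab7 to kinesin, and Rufy1 (-0.84 ± 0.12), which binds Rab4 and Rab14. The others were Rab11fip5 (-0.40 ± 0.05), a Rab11 effector, the Rab1 tether Uso1 (-0.29 ± 0.05) and Myo5b (-0.47 ± 0.07).

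Several of the falls depended on how libraries were scaled. The summed level of all 58 members was 3214, 3212 and 3207 CPM in eIF3m siRNA libraries, against 3480, 3444 and 3446 CPM in control siRNA libraries on the TMM scale. As a share of raw counts the order was the reverse, with 0.334%, 0.336% and 0.338% in eIF3m siRNA libraries, against 0.330%, 0.327% and 0.325% in control siRNA libraries. With no scaling factors the median of all genes was 0.16, beside 0.01 with TMM, and 9 members were called higher and 2, Rab31 and Rab7a, lower. A change of scaling factors moves all genes nearly alike, so the Rab median relative to that of all genes, -0.09, cannot tell the scalings apart. On TMM 14 members lay above the median of all genes and 28 below it, and without control siRNA replicate 1 the counts were 18 and 26.

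**Figure D5:**
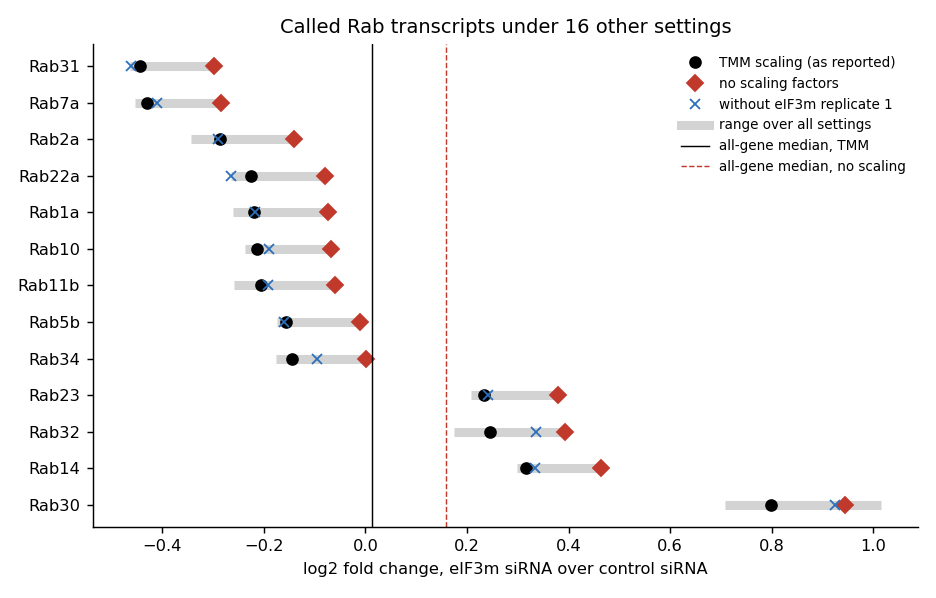
Log2 fold change of the 13 called Rab transcripts as reported (black), with no scaling factors (red diamonds) and without eIF3m siRNA replicate 1 (blue crosses), with the range over 16 other settings in grey; vertical lines mark the median of all genes with TMM (0.01) and with no scaling (0.16). Only Rab31 and Rab7a among those that fell remained called with no scaling factors, while all 4 that rose did.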

How the data were processed

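RNA was sequenced in 6 libraries of rat cells, 3 with eIF3m siRNA and 3 with control siRNA. The deposited values are whole-number counts per gene symbol. Per the submitters' processing notes, which give no order, the authors named Trimmomatic 0.40, HISAT2 2.2.1, featureCounts, DESeq2, limma and genome build rn6 in making these counts. The annotation, strand setting and handling of multi-mapped reads are stated in none of the sources used here. Of 31038 listed symbols 27 had been turned into dates and were left out. Rab genes were found by symbol, and roles and regulators by hand-written lists. The members and lists were chosen with earlier results of these data known.

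Genes were filtered with filterByExpr (at least 10 counts, 15 in total), which left 12724, and tested with edgeR 4.0.16 in R 4.3.3 (TMM scaling, quasi-likelihood test, two-sided, Benjamini-Hochberg over all genes tested, threshold 0.05). CPM use TMM-scaled totals, SE is the log2 fold change divided by the root of F, and intervals are 95%. Counting floors are 3 counts and cover counting error only. The text names every called Rab, uncalled paralogues of called ones, and up to 3 called regulators per class and direction with the lowest p; further names are descriptions, and regulators outside this rule are marked. Settings tried were other scalings, DESeq2 1.42.0, limma-voom (limma 3.58.1), robust dispersion, other filters, a replicate block, thinning to equal depth and leaving out each library. Thinning was a single random draw (seed 11), so values and calls in thinned libraries carry the noise of that draw. Promoter windows are the 250 bases before RefSeq starts (GRCr8), and the motifs were chosen with results known.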

Additional observations from a re-analysis of the deposited data

How the results depend on the processing

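The calls of Rab14, Rab23, Rab30, Rab31 and Rab7a held under all 16 settings, and those of the other 8 were lost under at least 1; the cause was not tested. Members called higher numbered 9 with no scaling factors and 7 with no filter, and members called lower 5 with upper-quartile scaling, 2 with no scaling factors and 4 in thinned libraries. Regulators called higher numbered 28 with no scaling factors, and those called lower 21 with upper-quartile scaling, 16 with no scaling factors, 22 with DESeq2 and 21 in thinned libraries. All genes called higher numbered 4163 with no scaling factors and 1351 in thinned libraries, and those called lower 1680 and 1782. The Rab median was -0.012 with upper-quartile scaling and 0.066 with no scaling factors, and -0.092 to -0.055 with 1 library left out.

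Signs turned as follows (log2 fold change). With no scaling factors the values were 0.084 for Rab11a, 0.096 for Rab2b, 0.0022 for Rab34, 0.12 for Rab5c, 0.062 for Rab12, 0.072 for Rab18, 0.059 for Rab20, 0.067 for Rab21, 0.033 for Rab24, 0.063 for Rab28, 0.062 for Rab35, 0.098 for Rab40c, 0.066 for Rab6b, 0.010 for Rab9a, 0.087 for Rab9b and 0.0051 for Rab3gap2. With upper-quartile scaling they were 0.0054 for Rab11a, 0.018 for Rab2b, 0.040 for Rab5c, 0.020 for Rab40c and 0.0089 for Rab9b. In thinned libraries they were 0.045 for Rab2b, 0.00063 for Rab34, 0.22 for Rab20, 0.11 for Rab28, -0.041 for Rab43 and 0.035 for Trappc8. With 1 library left out the ranges were -0.12 to 0.0027 for Rab2b, -0.088 to 0.024 for Rab5c, -0.21 to 0.13 for Rab20, -0.28 to 0.25 for Rab3a, -0.15 to 0.013 for Rab40c, -0.35 to 0.18 for Rab42, -0.21 to 0.22 for Rab43, -0.042 to 0.13 for Rab4b, -0.055 to 0.30 for Rab8b and -0.17 to 0.046 for Rab9b.

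Replicate numbers did not pair the samples (correlations of same-numbered deviations 0.031, -0.0030 and 0.0063, and not every sample correlated best with its own number). With a replicate block 4 members were higher and 9 lower, the same 13. The 16 untested members had few counts, and the reason was not tested. The shallowest library was eIF3m siRNA replicate 2, which held 2156186 counts.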
